A study of Mus musculus with 6 samples.

Results

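SR proteins and heterogeneous nuclear ribonucleoproteins (hnRNPs) are the 2 classic families of proteins that decide which exons stay in a messenger RNA. They were taken as the protein-coding genes of the GENCODE M21 annotation whose symbol begins with Hnrnp, or with Srsf and a digit. This gave 31 genes of the 55401 in the count tables, 20 of the hnRNP family and 11 of the SR family. RNA was sequenced from mouse CD4+ T cells. Magnetic beads had been used to enrich naive cells out of spleen, and CD3 and CD28 were then stimulated for 24 h. In 3 libraries the cells came from mice with Satb1 flox/flox alleles and the CD4-Cre transgene, called Satb1 cKO here, in which Cre is driven by Cd4 regulatory sequences. The other 3 libraries came from control mice, labelled WT. The sources used here give neither the Cre status of control mice nor the age and strain of any mouse. Nothing says that replicates were different animals, so p-values measure the spread between these libraries, which may be technical.

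Pre-mRNA is cut and joined by the spliceosome, and its choice of splice sites is steered by proteins bound to exons and introns. SR proteins carry RNA recognition motifs and a tail rich in arginine and serine dipeptides, and they mostly favour inclusion of the exons they bind. hnRNPs coat nascent RNA and often favour skipping, although many of them act either way according to where they bind. Many genes of both families limit their own protein by splicing in a poison exon, a short exon with a stop codon that sends the transcript to nonsense-mediated decay. In T cells the textbook case is Ptprc, which encodes the phosphatase CD45 and whose variable exons are skipped after activation with help from hnRNP L and its relative hnRNP LL, the product of Hnrnpll. Counts per gene, as used here, do not show which exons a transcript holds.

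Reads counted on genes came to 16621609 to 19023023 in Satb1 cKO libraries and 14895389 to 20266626 in control libraries. Satb1 itself stood at 426, 546 and 462 CPM (reads scaled to a common library size) in Satb1 cKO libraries and at 712, 851 and 727 CPM in control libraries (log2 fold change -0.68, SE 0.0866, edgeR adjusted p = 9.7e-05). The transcripts that remained may include exons Cre does not remove. This was not tested, and counts per gene cannot show whether deletion was complete. T cell markers (8 genes, of which 1 rose and 5 fell) were all detected and summed to 2224 to 2287 CPM in Satb1 cKO libraries and 2973 to 3069.7 CPM in control libraries. Most of that difference lay in 2 of the 8 genes, named after their values were seen. Cd4 averaged 209 ± 4.06 CPM in Satb1 cKO and 701 ± 20 CPM in control libraries, and Cd28, the co-stimulatory receptor through which the cells were stimulated, 341 ± 16.7 CPM in Satb1 cKO and 610.3 ± 28 CPM in control libraries (SD, n = 3 each). Both were called lower, Cd5 was called higher, and Cd3e and Cd3g were not called. Red cell lineage markers (7 of 7 tested higher) summed to 310.1, 1862 and 1609.7 CPM in Satb1 cKO libraries and 25.4 to 31.9 CPM in control libraries. Myeloid markers (9 of 9 tested higher) summed to 124, 74.3 and 176 CPM in Satb1 cKO libraries and 19.8 to 24 CPM in control libraries. B cell markers (2 of 6 higher) stayed at or under 14 CPM and NK cell markers (2 of 2 higher) at or under 17.1 CPM in every library. Only 2 of the 6 listed NK cell markers, Eomes and Klrk1, had enough reads to be tested. Eomes made up most of that sum, at 11 ± 1.55 CPM in Satb1 cKO and 5.26 ± 1.4 CPM in control libraries (SD, n = 3 each). No listed red cell, myeloid, B cell or NK cell marker was at 0 in all libraries. In RNA from a mixed cell pool, fewer cells of one type and less RNA per cell cannot be told apart.

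Promoter sequence is shown for 3 of the 5 members whose call held in all 12 alternative analyses: Hnrnpc, which rose, and Hnrnpa3 and Hnrnpa2b1, which fell. Hnrnpll, also among the 5, had no matched promoter window, and Hnrnpm is not shown. Each stretch is the 240 bases from 250 to 11 bases before the RefSeq transcription start, from RefSeq on GRCm38.p6, written 5′ to 3′ on the strand of the gene. Capitals mark matches to 5 motifs searched on both strands, which may overlap: the CCAAT box, the GC box GGGCGG, the E-box CACGTG, the ETS word CCGGAAG and the TATA word TATAAA. Hnrnpc lies at chr14:52104032-52104271, minus strand, Hnrnpa3 at chr2:75659009-75659248, plus strand, and Hnrnpa2b1 at chr6:51469905-51470144, minus strand.
Hnrnpc: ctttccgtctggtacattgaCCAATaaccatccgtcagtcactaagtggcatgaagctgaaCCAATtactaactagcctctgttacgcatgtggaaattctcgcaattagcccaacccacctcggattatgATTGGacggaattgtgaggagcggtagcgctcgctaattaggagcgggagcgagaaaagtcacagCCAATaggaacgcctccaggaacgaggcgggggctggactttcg
Hnrnpa3: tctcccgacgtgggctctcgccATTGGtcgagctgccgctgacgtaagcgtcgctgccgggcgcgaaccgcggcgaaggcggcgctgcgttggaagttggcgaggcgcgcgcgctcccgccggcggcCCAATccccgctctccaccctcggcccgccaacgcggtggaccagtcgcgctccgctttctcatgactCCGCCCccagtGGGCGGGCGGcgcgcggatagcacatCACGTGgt
Hnrnpa2b1: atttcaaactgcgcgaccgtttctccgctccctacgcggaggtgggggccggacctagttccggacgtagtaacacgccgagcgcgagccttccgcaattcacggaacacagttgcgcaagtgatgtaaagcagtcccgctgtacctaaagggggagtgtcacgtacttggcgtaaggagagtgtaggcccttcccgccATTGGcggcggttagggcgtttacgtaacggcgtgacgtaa

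The windows of the gene that rose and of the 2 that fell all hold the CCAAT box, the recognition word of the factor NF-Y, which occurs 4 times in Hnrnpc, 2 times in Hnrnpa3 and 1 time in Hnrnpa2b1. GGGCGG, the GC box bound by Sp1 family factors, occurs 3 times in Hnrnpa3 and 0 times in the other 2 windows. The E-box CACGTG occurs 1 time in Hnrnpa3. GC content was 51.2% for Hnrnpc, 72.9% for Hnrnpa3 and 58.8% for Hnrnpa2b1. Windows, taken at the most upstream start of each gene, were matched for 29 of the 31 members, all but Hnrnpll and Hnrnpul2. Their median GC content was 66.2%, against 59.6% over 9410 tested genes with a window and 52.1% over all 27025 promoters. A GGGCGG word lay in 23 of 29 member windows (79.3%), against 56.6% for tested genes and 31.5% of all promoters. CCAAT lay in 15 (51.7%, against 36.1% and 33.7%), the ETS family word CCGGAAG in 6 (20.7%, against 13.2% and 6.29%), TATAAA in 3 (10.3%, against 6.09% and 12.7%) and CACGTG in 2 (6.9%, against 7.95% and 5.69%). These are matches of letters and not measured binding.

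All 31 members had enough reads to be tested, and 30 of them were abundant. Compared per kilobase of annotated exon (RPKM), Hnrnpa1, which encodes a core hnRNP that antagonises SR proteins at many exons, had the highest level, at 676 ± 2.39 RPKM in Satb1 cKO and 700.2 ± 35.3 RPKM in control libraries (SD, n = 3 each). It was followed in Satb1 cKO by Hnrnpab at 303 ± 4.93 RPKM, Srsf2 at 299 ± 3.12 and Hnrnpa0 at 295 ± 14.3, 3 levels closer to each other than the spread of Hnrnpa0. In control libraries the same genes stood at 285 ± 13.8, 279 ± 4.12 and 270.2 ± 5.74 RPKM. Among SR genes, Srsf1, Srsf5, Srsf6 and Srsf7 formed a group at 101 to 118 RPKM in Satb1 cKO and 100 to 126 RPKM in control libraries. The lowest hnRNP genes were Hnrnpr (10.4 and 10.3 RPKM), Hnrnph3 (17.3 and 18.6) and Hnrnpll (18.9 and 13.7), each with the Satb1 cKO value given before the control value. Srsf12, a divergent SR family gene, was barely expressed, at 0.41 ± 0.0822 RPKM in Satb1 cKO and 0.469 ± 0.045 RPKM in control libraries, with 68 reads in all Satb1 cKO libraries and 74 in all control libraries. Exon length here is the union of all annotated exons, which lowers RPKM for genes with long minor exons.

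**Figure D1:**
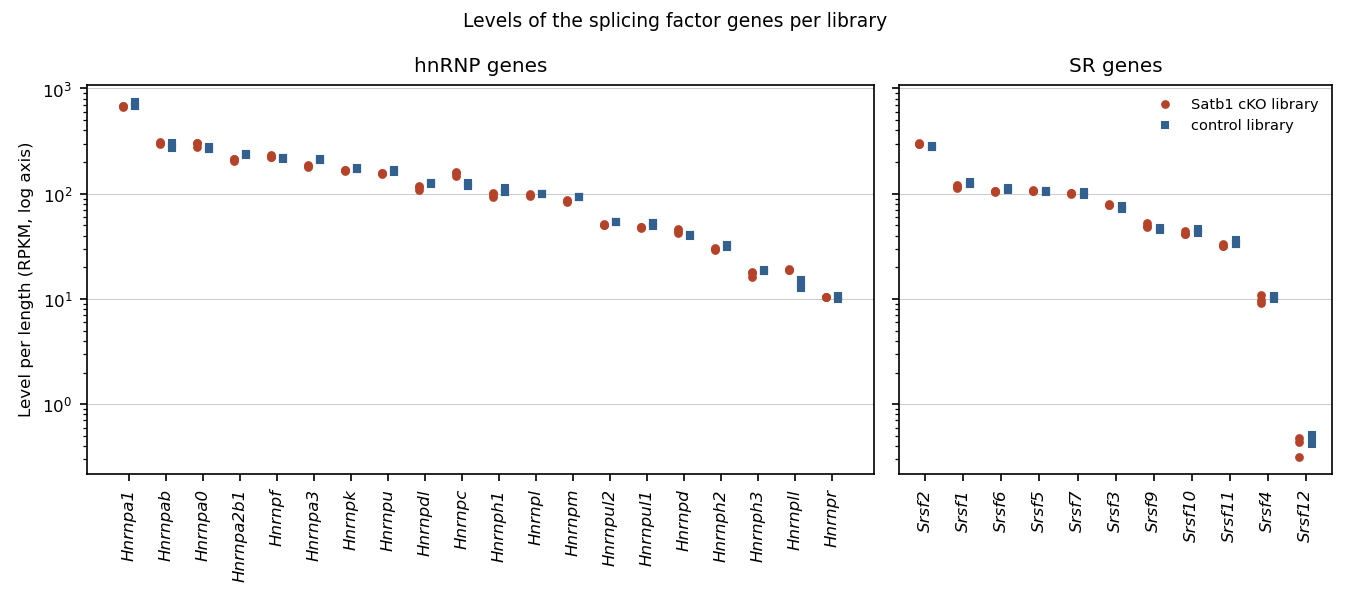
Level per kilobase of exon (RPKM, log axis) of each hnRNP gene (left panel) and SR gene (right panel) in each Satb1 cKO library (circles) and control library (squares), ordered by the control mean. Hnrnpa1 is highest near 700 RPKM, Srsf12 lies below 1 RPKM, and the 2 groups differ little beside the range between genes.

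Summed over each family, levels in the 2 groups lay close together. The 11 SR genes summed to 4174, 4182 and 4132 CPM in Satb1 cKO libraries, against 4263, 4092 and 4078 CPM in control libraries. These ranges overlap, but only through control replicate 1. The 20 hnRNP genes summed to 14472, 14608 and 14477 CPM in Satb1 cKO libraries, against 14710 to 15231 CPM in control libraries. Every Satb1 cKO library was therefore below every control library, with means of 14519 ± 77.1 CPM and 14901 ± 287 CPM (SD, n = 3 each).

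Of the 31 members, 6 rose and 7 fell in Satb1 cKO cells and 18 did not pass (edgeR's quasi-likelihood test, Benjamini-Hochberg adjusted over 13364 genes, threshold 0.05). Over all genes tested, 42.3% passed, 21.6% higher and 20.7% lower, so the members' share (19.4% higher and 22.6% lower) lay near the background. Differences were small. The median log2 fold change was -0.06 for hnRNP genes, -0.04 for SR genes and 0 for all genes tested, and the median size without its sign was 0.10 for members and 0.22 for all genes tested. Since abundant genes show smaller fold changes, the 5955 genes with a mean of at least 30 CPM are a closer comparison: their median size was 0.15 and 52.9% of them passed, against 0.10 and 13 of the 30 members at that level. None of the 31 members passed a test against a 1.5-fold change (glmTreat in edgeR), which 4.57% of all genes passed upward and 2.78% downward, and which 4.08% of the genes with at least 30 CPM passed in either direction. The count was also 0 at an unadjusted p under 0.05, where 11.7% of all genes lay, and 0 with DESeq2.

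Libraries of the 2 groups did not overlap for 9 members that were higher in Satb1 cKO and 15 that were lower, against 27.0% and 26.5% of all genes tested. Among hnRNP genes these were 5 and 12 of 20, and among SR genes 4 and 3 of 11. The higher share of the members was thus near that background and the lower share above it. The background share was not worked out for genes with a mean of at least 30 CPM, the closer comparison.

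**Figure D2:**
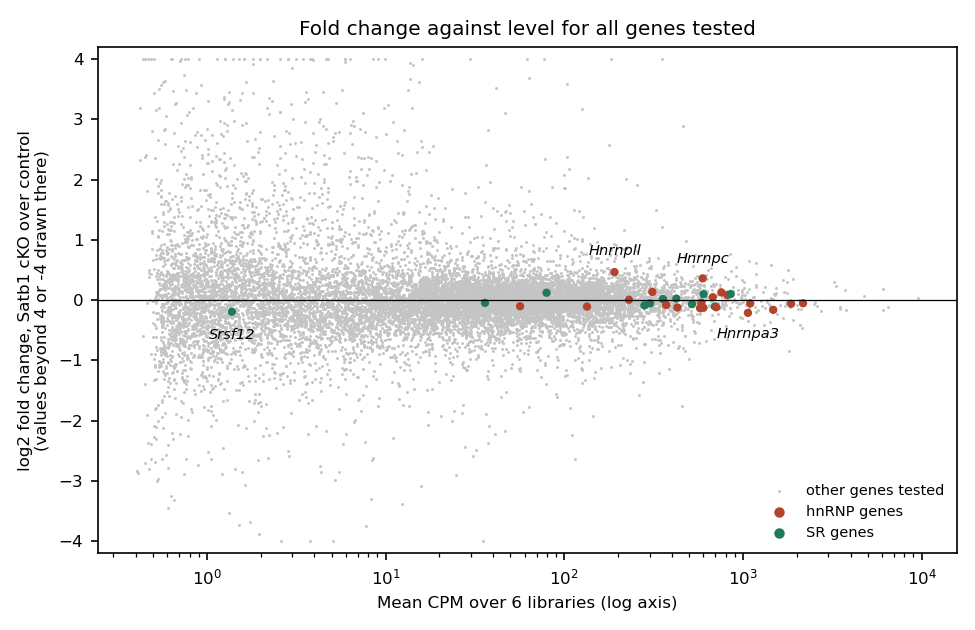
Log2 fold change of Satb1 cKO over control against mean CPM over 6 libraries (log axis) for all 13364 genes tested, with hnRNP and SR genes in colour and values outside the axis limits drawn at the limits. All members but Srsf12 lie in the abundant part of the plot and close to 0, with Hnrnpll (0.47) and Hnrnpc (0.36) highest and Hnrnpa3 (-0.21) lowest among the hnRNP genes.

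Hnrnpll had the largest change of the 31 genes. It (ENSMUSG00000024095.15, chromosome 17, 80029487 to 80062334, GRCm38) stood at 226, 219.8 and 218 CPM in Satb1 cKO libraries and at 177, 149 and 154 CPM in control libraries. All 3 Satb1 cKO libraries were above the highest control library, which was control replicate 1. The rise was 1.38-fold (log2 fold change 0.47, SE 0.0591, edgeR adjusted p = 8.94e-05), and 24.5% of all genes tested had a larger change in either direction. The myeloid and red cell marker sums were higher in all 3 Satb1 cKO libraries, and their part in the rise was not tested.

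Hnrnpl, the closest relative of Hnrnpll, did not pass the test. It stood at 580, 563 and 586 CPM in Satb1 cKO libraries and at 593, 598 and 588 CPM in control libraries (log2 fold change -0.04, 95% interval -0.11 to 0.03, adjusted p = 0.356). The log2 ratio of Hnrnpll to Hnrnpl in CPM was accordingly -1.36, -1.36 and -1.43 in Satb1 cKO libraries and -1.75, -2.00 and -1.93 in control libraries, without overlap. Ptprc, the transcript on which the products of both genes are known to act, was lower over the whole gene, at 1218, 1355 and 1302 CPM in Satb1 cKO libraries and 2378, 2282 and 2328 CPM in control libraries (log2 fold change -0.85, SE 0.0389, adjusted p = 4.17e-08). Its exon use was not analysed here.

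Hnrnpc, which encodes the C proteins that bind uridine tracts and keep cryptic exons out of messenger RNA, had the next largest rise. Values were 691, 676 and 641 CPM in Satb1 cKO libraries and 544, 507 and 513 CPM in control libraries. The lowest Satb1 cKO library lay well above the highest control library, and the rise was 1.28-fold (log2 fold change 0.36, SE 0.0414, adjusted p = 4.25e-05). Hnrnpc (ENSMUSG00000060373.15) is on chromosome 14 at 52073377 to 52104028 and shares no exon with another counted gene.

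The A/B group of hnRNPs, which bind exonic and intronic silencers, split by gene. Hnrnpa3 stood at 968, 1015 and 984 CPM in Satb1 cKO libraries and at 1141, 1151 and 1139 CPM in control libraries, a fall of 0.21 on the log2 scale (log2 fold change -0.21, SE 0.0309, adjusted p = 0.000265). Hnrnpa2b1, whose product also takes part in RNA transport, was at 1421, 1403 and 1358 CPM in Satb1 cKO libraries against 1583, 1554 and 1536 CPM in control libraries (-0.16, SE 0.0301, adjusted p = 0.00134). For both genes the highest Satb1 cKO library lay below the lowest control library. Hnrnpa1 was at 2126, 2139 and 2127 CPM in Satb1 cKO libraries and 2335, 2129 and 2158 CPM in control libraries; the groups overlap and it did not pass (adjusted p = 0.272). Hnrnpa0, a gene of a single annotated transcript whose product binds AU-rich RNA, was called higher, at 747, 813 and 814 CPM against 741, 716 and 713 CPM in control libraries (0.13, SE 0.0402, adjusted p = 0.0231). The call did not hold without Satb1 cKO replicate 2, Satb1 cKO replicate 3, control replicate 2 or control replicate 3 (adjusted p = 0.0969, 0.0958, 0.0933 and 0.0989).

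Hnrnpd and Hnrnpdl, 2 related genes of the AU-rich element binding group that lie 54638 bp apart on chromosome 5, were called in opposite directions. Hnrnpd, which encodes AUF1, was higher, at 342, 313 and 322 CPM in Satb1 cKO libraries and 300.4, 296 and 293 CPM in control libraries (log2 fold change 0.14, SE 0.0423, adjusted p = 0.0223). Hnrnpdl was lower, at 522, 557 and 568 CPM in Satb1 cKO libraries and 606, 595 and 604 CPM in control libraries (-0.13, SE 0.039, adjusted p = 0.0187). Neither gene's groups overlap. Without Satb1 cKO replicate 1, in which Hnrnpd was highest and Hnrnpdl lowest of the group, both lost their call (adjusted p = 0.0777 and 0.0571). Without control replicate 3 both lost it too (adjusted p = 0.0865 and 0.0596), and Hnrnpd also without Satb1 cKO replicate 3 or control replicate 2 (adjusted p = 0.0541 and 0.0793). Hnrnpab of the same group, at 842, 829 and 856 CPM against 836, 778 and 764 CPM in control libraries, had an adjusted p of 0.0947, and of 0.013 once control replicate 1 was removed. Exons of Phykpl on the opposite strand cover 29.1% of its exon length.

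The remaining called hnRNP genes were all lower. Hnrnpm, whose product binds GU-rich introns, was at 681, 693 and 666 CPM in Satb1 cKO libraries and 744, 733 and 736 CPM in control libraries (log2 fold change -0.12, SE 0.0322, adjusted p = 0.0123), although 14.7% of its exon length is shared with a neighbour on the same strand. Hnrnph1, of the group that binds runs of guanine, was at 549.6, 589 and 585 CPM against 657, 611 and 613 CPM in control libraries (-0.13, SE 0.0421, adjusted p = 0.0316). Hnrnpul1 was at 415, 406 and 414 CPM against 430.4, 452 and 460.4 CPM in control libraries (-0.12, SE 0.0379, adjusted p = 0.0238). In each of these 3 genes the groups stand apart by a small margin. Hnrnph1 lost its call without Satb1 cKO replicate 1 (adjusted p = 0.105) and with the replicate number as a block (adjusted p = 0.0518). Hnrnpul1 lost its call without Satb1 cKO replicate 2 or 3, or control replicate 2 or 3 (adjusted p = 0.0684, 0.0533, 0.0598 and 0.0979).

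Among the 10 hnRNP genes that did not pass were Hnrnpk, a cytidine tract binder, at 1078 ± 15.9 CPM in Satb1 cKO and 1119 ± 17.8 CPM in control libraries, and Hnrnpu, a scaffold attachment factor that binds chromatin-associated RNA, at 1820 ± 18.3 CPM in Satb1 cKO and 1897 ± 36.7 CPM in control libraries (SD, n = 3 each). Hnrnph2, with an adjusted p of 0.0549, passed in 3 alternatives: upper quartile scaling (adjusted p = 0.0364), the fit without immunoglobulin, T cell receptor, globin and mitochondrial genes (adjusted p = 0.043), and the fit without control replicate 2 (adjusted p = 0.0475). Hnrnpul2, with an adjusted p of 0.0855, passed without control replicate 1 (adjusted p = 0.0483). Hnrnpr, at 231 ± 0.838 CPM in Satb1 cKO and 229 ± 8.3 CPM in control libraries, had the smallest change of all members (log2 fold change 0.01, 95% interval -0.08 to 0.10). Hnrnpf, at 689.8 ± 15.5 CPM in Satb1 cKO and 667 ± 7.01 CPM in control libraries, also did not pass. Nor did Hnrnph3, at 54.6 ± 3.23 CPM in Satb1 cKO and 58.5 ± 0.83 CPM in control libraries.

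**Figure D3:**
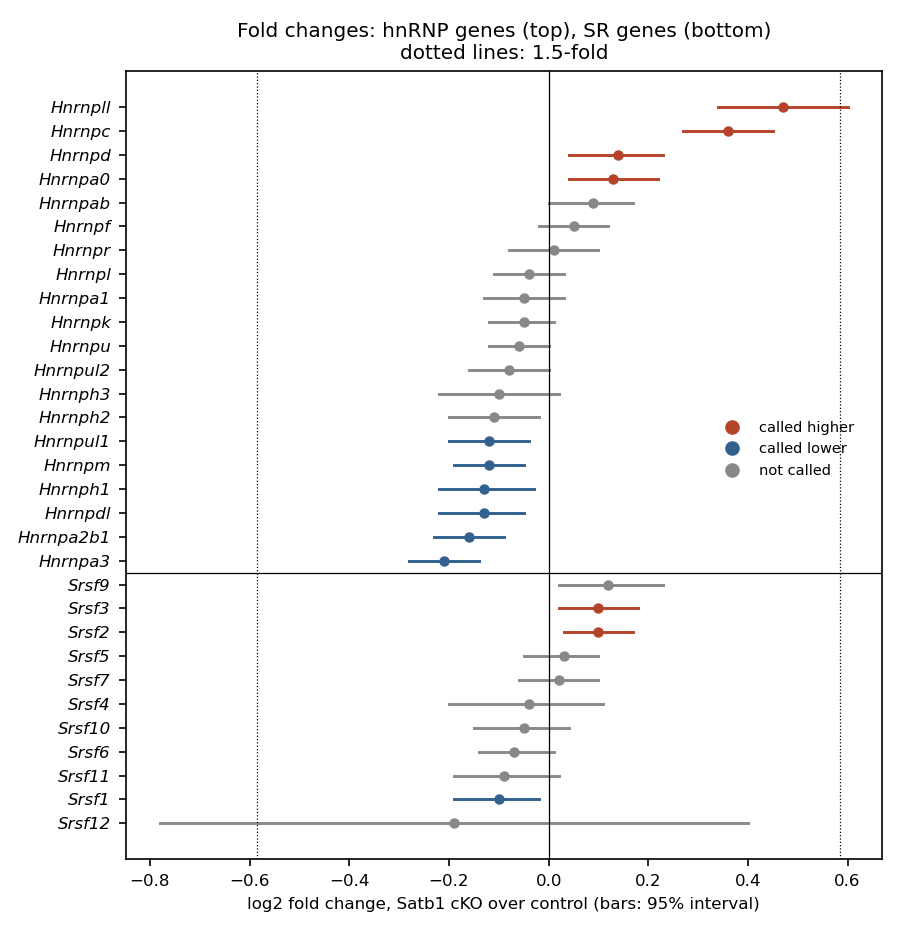
Log2 fold change of Satb1 cKO over control for each member with its 95% interval, hnRNP genes above the line and SR genes below it, coloured by call, with dotted lines at 1.5-fold. Hnrnpll and Hnrnpc stand apart on the higher side, and every other call lies between -0.21 and 0.14.

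Among SR genes 2 rose (18.2%), 1 fell (9.09%) and 8 did not pass. Over all genes tested the shares were 21.6% higher and 20.7% lower, so SR genes were not called more often than the background. Srsf2, whose product activates splicing and transcription elongation, was higher, at 874, 887 and 892 CPM in Satb1 cKO libraries and 838, 817 and 816 CPM in control libraries (log2 fold change 0.10, SE 0.0309, adjusted p = 0.0204). Srsf3, the smallest SR protein and a factor of mRNA export, was higher, at 618, 633 and 618 CPM against 603, 578 and 564 CPM in control libraries (0.10, SE 0.0362, adjusted p = 0.0468). Srsf1, the founding SR protein, was lower, at 697, 663 and 654 CPM against 745, 711 and 709.8 CPM in control libraries (-0.10, SE 0.0374, adjusted p = 0.0428). In all 3 the libraries of the groups do not overlap, but margins are narrow: the highest Satb1 cKO value of Srsf1 was 697 CPM and the lowest control value 709.8 CPM. None of these calls held throughout. Srsf2 lost its call without Satb1 cKO replicate 2 or 3, without control replicate 2 or 3 (adjusted p = 0.0693, 0.0736, 0.099 and 0.0933) and with no filter on low counts (adjusted p = 0.108), and 25.3% of its exon length is shared with genes of the opposite strand. Srsf1 lost its call in 5 of the 6 fits that left out a library (adjusted p up to 0.138) and with DESeq2 (adjusted p = 0.0525). Srsf3 lost it in 5 of the 6 (adjusted p up to 0.209), and in 4 other alternatives: DESeq2 (adjusted p = 0.0639), upper quartile scaling (adjusted p = 0.077), no filter on low counts (adjusted p = 0.153), and the fit without immunoglobulin, T cell receptor, globin and mitochondrial genes (adjusted p = 0.0589). The 1 library whose removal did not end the call was Satb1 cKO replicate 1 for Srsf1 and control replicate 1 for Srsf3.

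The other 8 SR genes did not pass. Srsf5, Srsf6, Srsf7, Srsf10 and Srsf11 were at 428 ± 5.08, 507 ± 7.34, 359.8 ± 4.21, 296 ± 9.57 and 273 ± 5.77 CPM in Satb1 cKO libraries. In control libraries they were at 420.1 ± 3.57, 531 ± 11.1, 355 ± 11.9, 307 ± 12.3 and 289.7 ± 16.2 CPM (SD, n = 3 each). Srsf9, a close relative of Srsf1, was at 87.1, 80.3 and 81.7 CPM in Satb1 cKO libraries against 76.3, 77.6 and 74.7 CPM in control libraries (log2 fold change 0.12, adjusted p = 0.0573). Its groups do not overlap, although it missed the threshold. The same was so for Srsf5, Srsf6 and Srsf11, and for the uncalled hnRNP genes Hnrnpf, Hnrnph2, Hnrnph3, Hnrnpk, Hnrnpl, Hnrnpu and Hnrnpul2. Srsf4 was at 35.4 ± 3.15 CPM in Satb1 cKO and 36.5 ± 1.14 CPM in control libraries, with 43% of its exon length shared with an opposite-strand gene. For the 17 members that did not pass, other than Srsf12, the 95% intervals ran from -0.22 at the lowest to 0.23 at the highest on the log2 scale. For Srsf12 the interval ran from -0.78 to 0.40, and no change of moderate size was detectable at its depth.

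**Figure D4:**
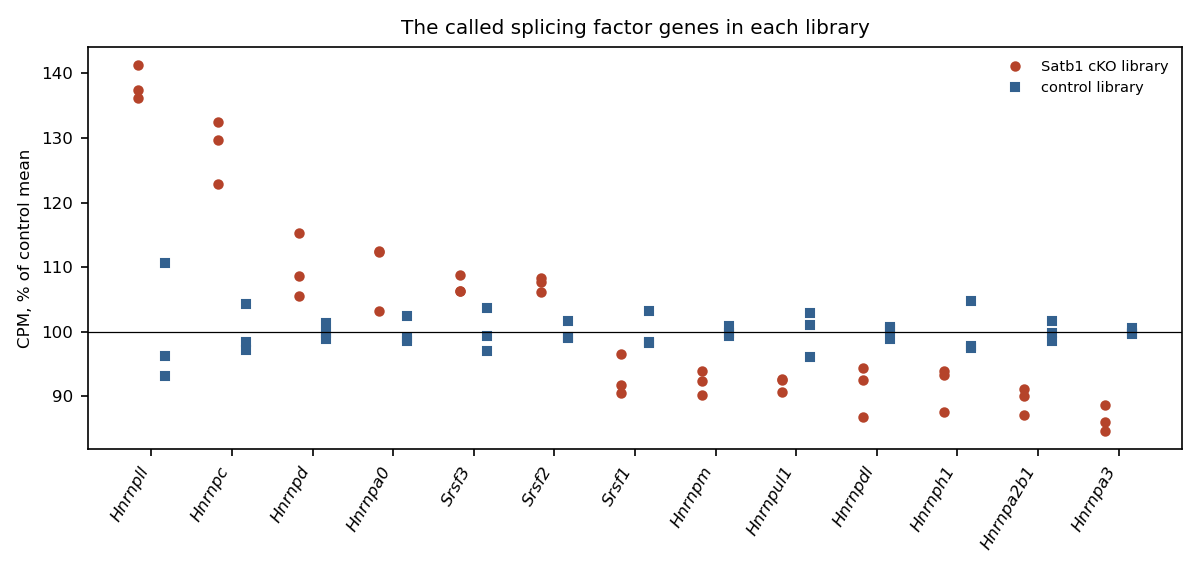
CPM of the 13 called members in each library as a percentage of the control mean, with Satb1 cKO libraries as circles left of the control libraries as squares. Satb1 cKO libraries lie above the control libraries for the 6 genes on the left and below them for the 7 on the right, with wide gaps for Hnrnpll, Hnrnpc, Hnrnpa2b1 and Hnrnpa3.

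Ratios between related genes do not depend on how libraries are scaled. They are given for 8 pairs of closely related members. The pairs were chosen after the values were seen, some of them from members already called in opposite directions, so the ratios are a description with no test. The log2 ratio of Hnrnpd to Hnrnpdl was -0.75 ± 0.127 in Satb1 cKO and -1.02 ± 0.021 in control libraries (SD, n = 3 each). That of Hnrnpa0 to Hnrnpa3 was -0.32 ± 0.0498 in Satb1 cKO and -0.66 ± 0.0335 in control libraries, and that of Srsf9 to Srsf1 -3.02 ± 0.0256 in Satb1 cKO and -3.24 ± 0.0463 in control libraries. Hnrnpa2b1 to Hnrnpa1 and Hnrnph1 to Hnrnpf went the other way, with differences of -0.11 and -0.17. Srsf3 to Srsf7, both on chromosome 17, differed by 0.08 (0.79 ± 0.0153 in Satb1 cKO and 0.71 ± 0.00597 in control libraries). For Hnrnpul1 to Hnrnpul2 the groups overlap (0.19 ± 0.0126 in Satb1 cKO and 0.23 ± 0.0391 in control libraries).

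**Figure D5:**
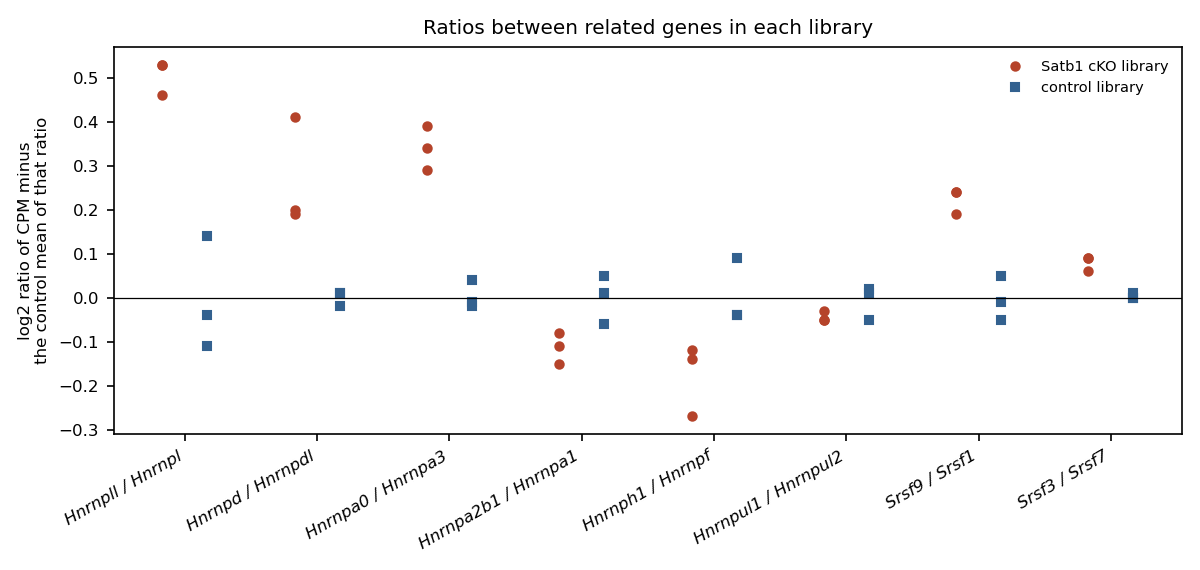
Log2 ratio of CPM between 2 related genes in each library, less the control mean of that ratio, for 8 pairs, with Satb1 cKO libraries as circles left of the control libraries as squares. Hnrnpll to Hnrnpl shows the widest shift, 0.51 on average, and Hnrnpul1 to Hnrnpul2 the narrowest, -0.04.

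Some members are neighbours on a chromosome. Srsf7 lies 137745 bp from Hnrnpll on chromosome 17, on the same strand, and stood at 361, 363 and 355 CPM in Satb1 cKO libraries and 368, 351 and 345 CPM in control libraries (log2 fold change 0.02, 95% interval -0.06 to 0.10). Hnrnpa0 and Hnrnpk are 262585 bp apart on chromosome 13, and only Hnrnpa0 was called. Annotated transcripts that end in nonsense-mediated decay, the class to which poison exon transcripts belong, exist for 9 of 11 SR genes and 10 of 20 hnRNP genes, against 29.7% of 11267 protein-coding genes tested. Retained intron transcripts are annotated for 22 of the 31 members (71%), against 60.6%. Neither background share was worked out for genes matched in level or in number of annotated transcripts. Reads on no annotated feature made up 7.45 ± 0.147% of the reads in Satb1 cKO tables and 9.34 ± 0.16% in control tables (SD, n = 3 each; exact permutation p = 0.1, the smallest this design allows), which counts reads of the whole library and not of these genes.

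The surrounding machinery was read from lists chosen for splicing. Of 19 tested hnRNP relatives under other symbols, 5 rose and 4 fell (median log2 fold change -0.01). Pcbp1, a poly(C)-binding protein, was higher (0.14, SE 0.0322, adjusted p = 0.00436). The polypyrimidine tract binding genes went both ways. Ptbp3 and Ptbp2 were lower (-0.32, SE 0.0474, and -0.28, SE 0.0553). Ptbp1 was higher, at 573 ± 10.8 CPM in Satb1 cKO and 531 ± 8.87 CPM in control libraries (0.11, SE 0.0341, adjusted p = 0.0229). Of 23 other splicing regulators, 1 rose and 6 fell (median -0.06), among them the muscleblind genes Mbnl2 and Mbnl3 (-0.33 and -0.31). The kinases, phosphatase subunits and importins that set the phosphorylation and nuclear entry of SR proteins included 8 falls and 2 rises among 14 genes (median -0.13). Clk1, a nuclear SR kinase, stood at 149 ± 1.98 CPM in Satb1 cKO and 203 ± 4.53 CPM in control libraries (log2 fold change -0.45, SE 0.0394, adjusted p = 6.07e-06), and Srpk2, a cytoplasmic SR kinase, at 36.8 ± 1.58 CPM in Satb1 cKO and 54 ± 0.937 CPM in control libraries (-0.55, SE 0.0547, adjusted p = 1.43e-05). Ppp1cb, a catalytic subunit of protein phosphatase 1, rose (0.70, SE 0.0471, adjusted p = 7.28e-07) to 413 ± 21.9 CPM in Satb1 cKO, against 254 ± 8.62 CPM in control libraries. Of the other catalytic subunits listed, Ppp1cc was lower (-0.24, SE 0.0401, adjusted p = 0.000572) and Ppp1ca was not called. Ppp1cb was the only gene of the splicing lists to pass the 1.5-fold test.

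Core spliceosome genes had more rises than falls. Of 25 U1, U2 and Sm genes, 10 rose and 1 fell (median log2 fold change 0.10), with Sf3a2 (0.30, SE 0.0456), U2af1 (0.22, SE 0.0391) and Snrpc (0.25, SE 0.0468) higher and Sf3b1, whose product recognises the branch point, lower (-0.12, SE 0.0317, adjusted p = 0.0106). Of 36 U4/U6.U5 and Prp19 genes, 7 rose and 1 fell (median 0.06), with Prpf31 (0.25, SE 0.0396) higher and Prpf38b lower (-0.17, SE 0.0424). SR-related and exon junction genes rose in 5 of 22 and fell in 3 (median -0.02), and the exon junction core genes Rbm8a, Magoh and Magohb were among the rises (0.21, 0.21 and 0.38). Of 12 nonsense-mediated decay factors 3 rose and 2 fell (median 0.04), the falls being Upf2 (-0.34, SE 0.0562) and the kinase gene Smg1 (-0.27, SE 0.036). Growth and cell cycle genes, which also accompany T cell activation, fell in 11 of 18 and rose in 5 (median -0.32) in the same libraries. That median pools opposite directions. The 5 that rose were the growth genes Myc, Ncl, Fbl, Nop56 and Nop58, and the 11 that fell were all cell cycle genes. Myc was higher (0.40, SE 0.0532) and Top2a, a mitotic topoisomerase gene, lower (-0.80, SE 0.0663), and their part in the values of the splicing factor genes was not tested. These counts describe the lists and are to be read against 21.6% higher and 20.7% lower over all genes tested, and 27.4% higher and 25.5% lower over genes with a mean of at least 30 CPM.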

How the data were processed

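The authors deposited raw counts, 1 table per library with whole numbers of reads per gene and no normalization, for 6 libraries. The submitters' processing notes name STAR 2.7.3a, HTSeq 0.12.4 and the mm10 build. The sources used here give no annotation release or strand setting. Each table holds 55401 genes and 5 summary lines, which entered neither the tests nor the library sizes. Of each table, 7.32% to 9.5% were reads on no feature, 5.4% to 5.57% ambiguous reads and 2.92% to 3.16% reads with several alignments. Many hnRNP and SR genes have processed pseudogene copies, and reads that map to several places are counted on a separate line, which can lower their counts. Without a known strand setting, reads shared with opposite-strand genes cannot be told apart.

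Symbols, positions, exon lengths and transcript classes came from GENCODE M21 (GRCm38), which matched 55141 genes. Counts were fitted with edgeR 4.0.16 in R 4.3.3 on the whole table (filterByExpr, which kept 13364 genes, TMM scaling, glmQLFit and glmQLFTest with group as the only term). A gene was called when its p, after Benjamini-Hochberg adjustment, was under 0.05, and all adjusted p-values are from this test unless named otherwise. The fold test was glmTreat against 1.5-fold. Standard errors were derived from the log2 fold change and its F statistic, and 95% intervals from these with the test's degrees of freedom. CPM uses TMM-scaled library sizes. The biological coefficient of variation was 6.27%. Libraries of a group correlated at 0.992 to 0.993 in log2 CPM and differed by more than sampling noise (chi-square per degree of freedom 2.09 to 6.9), so none was merged.

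The members and lists were chosen with earlier results of these data known, and the pairs and the comparison at 30 CPM were added after the values were seen. Genes named were every member, Satb1, Ptprc (the textbook target of Hnrnpll) and, from each pathway list, genes among the 3 called of smallest p in each direction. Ptbp1, Ppp1ca, Ppp1cc, Nop56, Nop58, Eomes and Klrk1 were named besides, after their values were seen. The analysis was tested on simulated counts for Satb1 cKO against control over 13128 genes, with 50 genes changed at each fold. Recovery was 14% at 1.2-fold, 76% at 1.5-fold, 76% at 2-fold and 94% at 4-fold, and 11 of 141 calls (7.8%) were false. The changed genes were drawn from tested genes of any level, and far fewer changed than the 42.3% called in the data. Recovery therefore does not give the power for the members, most of which were abundant. Alternatives were DESeq2 1.42.0, its size factors, upper quartile scaling, no filter, leaving out immunoglobulin, T cell receptor, globin and mitochondrial genes, a replicate block, and leaving out each library.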

Additional observations from a re-analysis of the deposited data

How the results depend on the processing

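Of the 13 called members, 5 (Hnrnpll, Hnrnpc, Hnrnpa3, Hnrnpa2b1 and Hnrnpm) kept their call and direction in all 12 alternatives, and 8 lost the call in at least 1, with no called member changing sign. Hnrnpm kept its call by a narrow margin without Satb1 cKO replicate 3 or control replicate 3 (adjusted p = 0.0478 and 0.0386). The number of members called higher was 6 and ranged from 2 to 7 when 1 library was left out, and the number called lower was 7 and ranged from 4 to 7. Fits on 5 libraries have less power, yet without control replicate 1 the counts were 7 higher and 7 lower. Called higher were 3 without Satb1 cKO replicate 2, and 2 without Satb1 cKO replicate 3, control replicate 2 or control replicate 3. Across the other alternatives it was 4 to 6 higher and 6 to 8 lower, and 0 members passed the 1.5-fold test in any. The median log2 fold change of hnRNP genes was -0.057, ranged from -0.085 to -0.050 without 1 library and was -0.073 with no filter on low counts. That of SR genes was -0.044 and ranged from -0.068 to 0.006, crossing 0 without Satb1 cKO replicate 3. Uncalled members near 0 changed sign: Hnrnpr to -0.004 with upper quartile scaling, -0.008 with no filter and -0.023 without control replicate 3, Srsf4 to 0.006 without Satb1 cKO replicate 3 and Srsf7 to -0.004 without control replicate 3. Without 1 library, Hnrnpr ranged from -0.023 to 0.022, Srsf4 from -0.117 to 0.006 and Srsf7 from -0.004 to 0.036. The cause was not tested. Replicate numbers do not pair the libraries: deviations of same-numbered libraries correlated at 0.0215, -0.0125 and 0.0279. With the replicate block, 6 members were called higher and 6 lower, and 2861 genes were called higher and 2702 lower, against 2885 and 2766 without it. The median fold changes under the replicate block were -0.057 for hnRNP and -0.044 for SR genes, and 0 members passed the 1.5-fold test. Depth was lowest for Srsf12, with 19 to 27 reads per library and an SE of 0.268, and the next largest SE was 0.0714 for Srsf4, with 542 to 740 reads per library.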
